A study of Homo sapiens with 6 samples.

Results

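The genes that write, read or remove DNA methylation (9 of the 58735 genes in the expression table) were followed in a pancreatic cancer cell line with added MMP28. They were taken by gene name as DNMT1, DNMT3A, DNMT3B, TET1, TET2, TET3, UHRF1, MBD2 and TDG, and all 9 were among the 15319 genes with enough reads to test. RNA was sequenced from AsPC-1 cells, an established human line of pancreatic ductal adenocarcinoma. Cells infected with an empty lentivirus (Vector, n = 3) were compared with cells infected with a lentivirus that carries the MMP28 cDNA (OE-MMP28, n = 3). The study describes the MMP28 virus as a GFP and puromycin resistance vector and selected stable cells with puromycin. It does not spell out the markers of the empty virus. The comparison asks what added MMP28, a secreted matrix metalloproteinase, does to the transcriptome. The methods of the study state in general that cell experiments were repeated independently and that samples were taken in triplicate, but do not say that the 3 libraries of a group came from separate cultures, so p-values measure only the spread between these samples, which may be technical.

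In mammals, DNA methylation is the addition of a methyl group to cytosine, mostly where a cytosine is followed by a guanine (a CpG). DNMT3A and DNMT3B place new marks, while DNMT1, guided by UHRF1 to the newly copied strand, restores the marks after each round of replication. TET1, TET2 and TET3 oxidise methylcytosine, TDG cuts out the later oxidation products so that base excision repair can put back an unmodified cytosine, and MBD2 binds methylated CpG and recruits the NuRD repressor complex. Only RNA was measured, so methylation itself is not described here.

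The maintenance genes were higher in OE-MMP28 cells and 2 other genes were lower. DNMT1 rose 1.48-fold and UHRF1 1.63-fold in mean FPKM (fragments scaled to gene length and to library size), whereas DNMT3A and TET3 fell to 0.652 and 0.679 of the Vector mean. By the quasi-likelihood F test of edgeR, adjusted by Benjamini-Hochberg over all genes tested, 4 of the 9 genes (44.4%) passed an adjusted p of 0.05, beside 23.4% of all genes tested. The 4 calls comprised 2 higher genes, where the background was 11.7%, and 2 lower genes, where it was 11.6%. In FPKM, the 3 values of one group lay wholly above or below those of the other for 5 of the 9 genes, which adds DNMT3B. The share over all genes tested was 38.1%, taken on another scale, counts scaled to library size by TMM. With so few members, these shares are given as a description. The median log2 fold change was -0.12 over the 9 genes and 0.014 over all genes tested. In bulk samples, fewer cells of a type and less RNA per cell cannot be told apart.

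**Figure D1:**
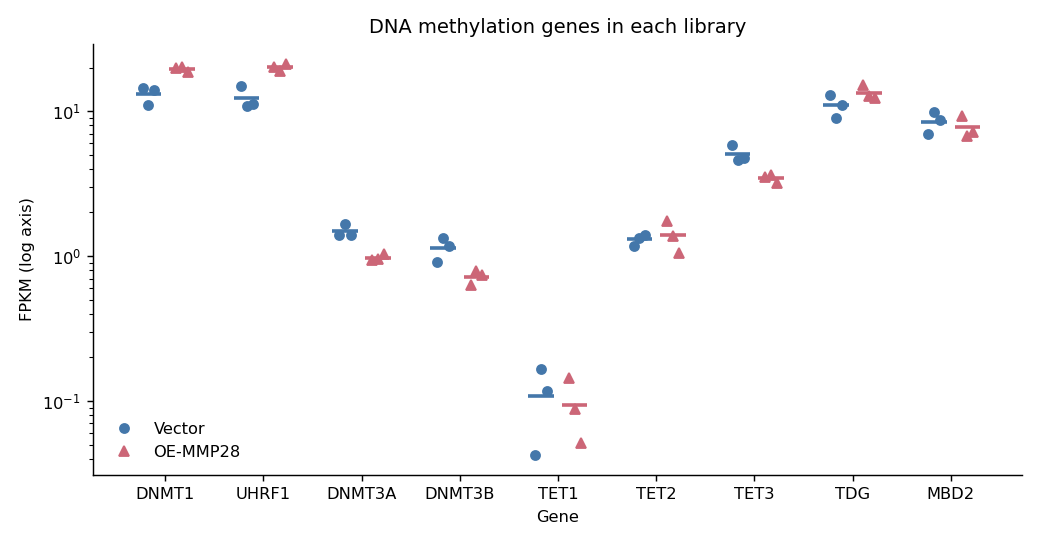
FPKM of each of the 9 genes (log axis) in the 3 Vector libraries (circles) and the 3 OE-MMP28 libraries (triangles), with horizontal bars at the group means. The groups separate for DNMT1, UHRF1, DNMT3A, DNMT3B and TET3 and overlap for TET1, TET2, TDG and MBD2.

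The total of reads assigned to genes ran from 13633249 to 16691458 per library, and 28167 genes had no read in any library. MMP28 itself was at 5.17, 9.11 and 8.43 FPKM in the Vector libraries and at 13.1, 13.9 and 15.1 FPKM in the OE-MMP28 libraries, higher in each OE-MMP28 library than in any Vector library. The ductal keratins KRT8, KRT18 and KRT19 and the epithelial adhesion gene EPCAM were abundant (group means of 288 to 1297 FPKM), and KRT7 was low at 1.14 and 1.81 FPKM. Of the 6 ductal markers KRT19 rose (log2 fold change 0.71, edgeR adjusted p = 0.00175) and CDH1, which encodes E-cadherin, fell from 20.3 to 13.4 FPKM (-0.59, edgeR adjusted p = 0.0113), and their part in the results below was not tested. Markers of leukocytes, endothelium and acinar cells stayed at or below 30 counts in every library, with TYROBP, KDR, PRSS1 and CPA1 at 0. Among them PECAM1, an endothelial marker, passed as higher in OE-MMP28 at very low levels (means of 0.0244 and 0.169 FPKM, edgeR adjusted p = 0.00361). Of 5 fibroblast markers, LUM was present (37.3 FPKM in Vector and 45.3 in OE-MMP28) while the other 4 stayed at or below 11 counts. The mitochondrial share of the counts was 11.9% to 14.8% in Vector and 8.80% to 11.9% in OE-MMP28, and its part in the results below was not tested.

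DNMT1 (ENSG00000130816; GRCh38 chr19:10133345-10231286, minus strand), the maintenance methyltransferase, was with UHRF1 the most abundant of the 9 genes. Its FPKM was 14.5, 11.0 and 14.0 in the Vector libraries and 19.9, 20.2 and 18.5 in the OE-MMP28 libraries. All 3 OE-MMP28 values lay above all 3 Vector values, and the Vector spread came mostly from replicate 2, the lowest. The means were 13.2 ± 1.89 and 19.5 ± 0.923 FPKM (SD, n = 3 each), and the log2 fold change in edgeR's quasi-likelihood test was 0.58 (SE 0.15, adjusted p = 0.00831). The call was lost without OE-MMP28 replicate 2 (log2 fold change 0.54, edgeR adjusted p = 0.0570). Of the exon bases of DNMT1, 0.847% overlap another gene on the same strand, S1PR2, whose largest count was 43 against 1459 to 3139 reads for DNMT1.

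UHRF1 (ENSG00000276043; chr19:4903080-4962154, plus strand) recognises hemimethylated CpG and brings DNMT1 to it. It was measured at 14.8, 10.9 and 11.2 FPKM in the Vector libraries and at 20.02, 18.8 and 21.3 FPKM in the OE-MMP28 libraries. The lowest OE-MMP28 library exceeded the highest Vector library, here replicate 1. The group means were 12.3 ± 2.16 and 20.1 ± 1.23 FPKM (SD, n = 3 each), with a log2 fold change of 0.72 (SE 0.16, edgeR adjusted p = 0.00273), the lowest adjusted p of the 9 genes. Since both genes rose, their ratio changed little: UHRF1 over DNMT1 was 0.937 ± 0.119 in Vector and 1.03 ± 0.112 in OE-MMP28 (SD, n = 3 each), with overlapping values.

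DNMT1 and UHRF1 are textbook cell cycle genes that are transcribed towards S phase. Of the members, only they had a listed start with the core recognition sequence of the E2F factors, which drive that programme. Their start regions are shown for this reason. The sequences are RefSeq promoters on GRCh38.p14, each spanning 250 bases before a transcript start to 50 after it, and all 9 members matched with 20 starts. The letters searched were TTTCCCGC, TTTCGCGC, TTTGCCGC and TTTGGCGC on both strands, chosen with the fold changes known. The motif stood in 3 of the 20 starts, beside 3.3% of all 34943 starts. By gene it stood in 2 of the 9, beside 3.97% of the 27167 genes with a promoter entry. In the lists described below it stood in 11 of 19 S phase genes with an entry and 6 of 17 methyltransferase partners. It stood in 2 of 7 imprinted genes, 2 of 20 germline genes and 2 of 15 genes of methyl donor and 2-oxoglutarate supply. For the methyl-CpG reader list it was 1 of 8, for base excision and TET partners 1 of 14, and for NuRD subunits 0 of 13. The stretches below run 5′ to 3′ on the gene's strand with the motif in capitals. For DNMT1 it is chr19:10194928-10195015 (minus strand), where the motif begins 2 bases before the RefSeq start. For UHRF1 they are chr19:4909427-4909514 and chr19:4909924-4910011 (plus strand), from separate starts, with the motif 14 and 160 bases before them.
DNMT1: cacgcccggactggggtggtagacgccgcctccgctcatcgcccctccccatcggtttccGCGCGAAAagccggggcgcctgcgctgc
UHRF1, first start: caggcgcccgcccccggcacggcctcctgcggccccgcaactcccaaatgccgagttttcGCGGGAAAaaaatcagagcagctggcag
UHRF1, second start: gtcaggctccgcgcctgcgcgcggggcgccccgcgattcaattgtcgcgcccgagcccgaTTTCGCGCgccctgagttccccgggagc

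A match is a description of letters and not a binding site. Whether E2F factors had a part in the change of DNMT1 and UHRF1 was not tested. The same promoters differ in CpG content, the substrate of the enzymes themselves. DNMT1 had 30 CpG in 300 bases and the 3 starts of UHRF1 had 36 to 46, beside a median of 14 over all 34943 promoters (quartiles 4 and 28). TET3 was equally rich at 33 to 45, MBD2 had 32 and TDG 22, while the starts of DNMT3A ranged from 18 to 46 and those of TET2 from 13 to 35. DNMT3B had 3 and TET1 had 6 to 11, the fewest among the listed starts of the 9 genes. The only DNMT3B entry, chr20:32779602-32779901, lies inside the gene, which begins at 32762385. The promoter at the 5′ end of DNMT3B was therefore neither counted nor searched. The entries of DNMT1 and UHRF1 also lie inside their genes as annotated in the expression table. That of DNMT1 spans chr19:10194904-10195203, while the gene, on the minus strand, begins at 10231286. Those of UHRF1 start from chr19:4909251, while the gene begins at 4903080. The outermost 5′ ends of these 2 genes were likewise not searched.

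DNMT3A (ENSG00000119772; chr2:25227855-25342590, minus strand), a de novo methyltransferase, was lower in OE-MMP28 cells. It was at 1.40, 1.67 and 1.40 FPKM in the Vector libraries and at 0.936, 0.9499 and 1.03 FPKM in the OE-MMP28 libraries. The groups did not overlap, at 248 to 271 reads in Vector and 178 to 208 in OE-MMP28. The means were 1.49 ± 0.154 and 0.972 ± 0.0498 FPKM (SD, n = 3 each), and the log2 fold change was -0.60 (SE 0.18, edgeR adjusted p = 0.0199). The call was lost without Vector replicate 2 (adjusted p = 0.0751) and without OE-MMP28 replicate 2 (adjusted p = 0.0840) in the same edgeR test.

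DNMT3B (ENSG00000088305; chr20:32762385-32809356, plus strand), the other de novo enzyme, had a fold change of similar size that did not pass the test. Its FPKM was 0.904, 1.34 and 1.17 in the Vector libraries and 0.628, 0.790 and 0.745 in the OE-MMP28 libraries, on only 46 to 84 reads. Every OE-MMP28 value was below every Vector value. The log2 fold change was -0.64 (SE 0.27, 95% interval -1.20 to -0.090), with an edgeR adjusted p of 0.0852. Without Vector replicate 1, the lowest of its group, the log2 fold change was -0.79 and the edgeR adjusted p 0.0389. DNMT3B over DNMT3A was 0.762 ± 0.104 in Vector and 0.742 ± 0.0820 in OE-MMP28 (SD, n = 3 each), with overlapping values.

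TET3 (ENSG00000187605; chr2:73986404-74108176, plus strand) supplied most of the TET transcript in both groups. It was at 5.87, 4.63 and 4.77 FPKM in the Vector libraries and at 3.53, 3.64 and 3.197 FPKM in the OE-MMP28 libraries. Vector replicate 1 was the highest, and the groups did not overlap. The means were 5.09 ± 0.678 and 3.46 ± 0.231 FPKM (SD, n = 3 each), with a log2 fold change of -0.55 (SE 0.16, edgeR adjusted p = 0.0157). The call was lost without Vector replicate 1 (-0.43, adjusted p = 0.0741), OE-MMP28 replicate 2 (-0.60, adjusted p = 0.0514) or OE-MMP28 replicate 3 (-0.50, adjusted p = 0.0570) in edgeR.

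TET2 (ENSG00000168769; chr4:105145875-105279816, plus strand), a dioxygenase often mutated in blood cancers, gave no call. Its FPKM was 1.17, 1.34 and 1.40 in the Vector libraries and 1.76, 1.37 and 1.04 in the OE-MMP28 libraries. The OE-MMP28 values spread on both sides of the Vector values, with replicate 1 the highest and replicate 3 the lowest of all 6 libraries. The log2 fold change was 0.099 (SE 0.19, 95% interval -0.30 to 0.50, edgeR adjusted p = 0.750). TET1 (ENSG00000138336; chr10:68560656-68694482, plus strand), the TET enzyme best known from embryonic stem cells, was barely detected, with 6, 21 and 16 reads in Vector and 21, 13 and 8 reads in OE-MMP28. At this depth the 95% interval of its log2 fold change ran from -1.25 to 0.87, so no difference was detectable (estimate -0.19, SE 0.51, edgeR adjusted p = 0.828).

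TDG (ENSG00000139372; chr12:103965804-103988874, plus strand), the glycosylase that acts after the TET enzymes, was measured at 12.9, 8.98 and 11.0 FPKM in the Vector libraries. In the OE-MMP28 libraries it was at 15.2, 12.7 and 12.3 FPKM. The groups overlapped because Vector replicate 1 reached the OE-MMP28 range, and the log2 fold change was 0.30 (SE 0.16, 95% interval -0.042 to 0.64, edgeR adjusted p = 0.197). A processed pseudogene, TDGP1, never exceeded 15 reads, or 1.27% of the TDG reads. MBD2 (ENSG00000134046; chr18:54151601-54224788, minus strand), the methyl-CpG reader, was at 7.002, 9.81 and 8.63 FPKM in Vector and at 9.31, 6.69 and 7.22 FPKM in OE-MMP28. These values overlapped widely, and the log2 fold change was -0.12 (SE 0.17, 95% interval -0.48 to 0.24, edgeR adjusted p = 0.649).

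**Figure D2:**
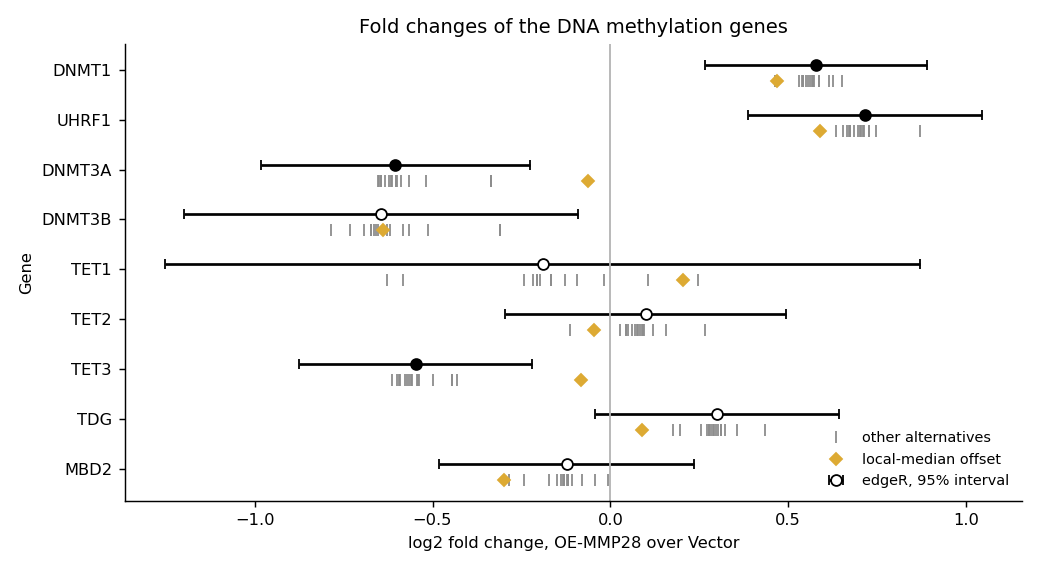
log2 fold change of OE-MMP28 over Vector for the 9 genes, with points and 95% intervals from edgeR (filled at an adjusted p under 0.05), grey ticks for the alternative analyses and diamonds for the analysis with each gene set against the median of the genes near it. The diamonds of DNMT3A and TET3 lie near 0, at -0.063 and -0.082, whereas those of DNMT1 and UHRF1 stay at 0.47 and 0.59.

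Fold changes were uneven along the chromosomes, and this touched both genes that fell. Chromosome 2, which carries DNMT3A and TET3, had a median log2 fold change of -0.41 over 1021 tested genes, chromosome 10 with TET1 had -0.47 over 610, and chromosome 14 had 0.56 over 492. Within 10 Mb on each side of DNMT3A, 94 of 100 tested genes had a log2 fold change below 0, with a median of -0.54, and 45 of them passed the test as lower against 2 as higher. Around TET3, 82 of 91 genes were below 0, with a median of -0.47, and 40 were lower against 2 higher. DNMT3A and TET3 therefore differed from the genes beside them by only -0.062 and -0.082 on the log2 scale. When each gene was tested against its local median, neither passed (edgeR adjusted p = 0.859 and 0.773). DNA copy number was not measured.

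The neighbourhoods of DNMT1 and UHRF1 on chromosome 19, which overlap each other, showed a smaller shift, upwards. Around DNMT1, 44 genes passed as higher (10.1%) and 18 as lower (4.12%). Around UHRF1, 38 passed as higher (11.5%) and 14 as lower (4.24%). The backgrounds were 11.7% higher and 11.6% lower. The median log2 fold change was 0.11 over the 437 genes around DNMT1 and 0.13 over the 330 around UHRF1. Against these medians both remained called, DNMT1 at 0.47 (edgeR adjusted p = 0.0391) and UHRF1 at 0.59 (edgeR adjusted p = 0.0148). The 132 neighbours of DNMT3B had a median of -0.0046. Against them its estimate stayed at -0.64 and did not pass (edgeR adjusted p = 0.112). For TET1 the neighbours fell more than the gene itself (median -0.40, with 88 of 107 below 0), which turned its uncalled estimate to 0.20.

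**Figure D3:**
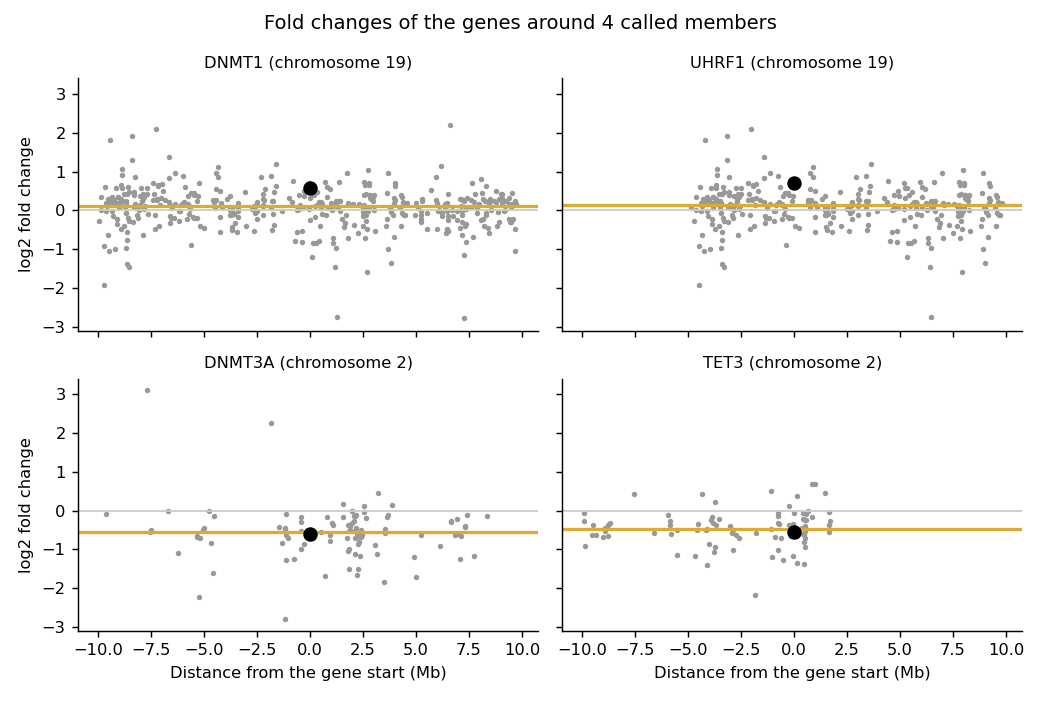
log2 fold change of every tested gene within 10 Mb of DNMT1, UHRF1, DNMT3A and TET3 (grey) against distance from the gene start, with the local median (line) and the gene itself (black). DNMT3A and TET3 lie on the line of their neighbours, at medians of -0.54 and -0.47, and DNMT1 and UHRF1 lie above theirs, at 0.11 and 0.13.

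Because the writers and erasers moved unequally, their proportions differed between groups. The summed FPKM of TET1, TET2 and TET3 over that of DNMT1, DNMT3A and DNMT3B was 0.421, 0.438 and 0.379 in the Vector libraries and 0.253, 0.232 and 0.212 in the OE-MMP28 libraries, without overlap. The de novo enzymes over DNMT1 were at 0.159, 0.273 and 0.183 in Vector and at 0.0785, 0.0861 and 0.0959 in OE-MMP28, also without overlap. The share of TET3 in the TET transcript was 0.781 ± 0.0420 in Vector and 0.703 ± 0.0483 in OE-MMP28 (SD, n = 3 each). These ratios restate the values of the single genes, including the neighbourhoods of DNMT3A and TET3, and were not tested.

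**Figure D4:**
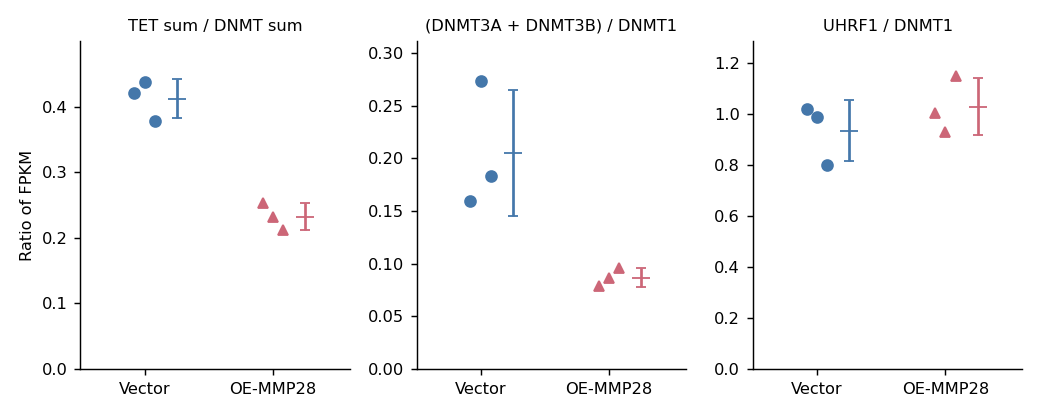
Ratios of FPKM in each Vector (circles) and OE-MMP28 (triangles) library, with the mean and SD beside the points (n = 3 each). The TET to DNMT ratio (means 0.413 and 0.232) and the de novo to maintenance ratio (0.205 and 0.0868) separate the groups, while UHRF1 over DNMT1 overlaps.

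In order of level, on the FPKM scale, DNMT1, UHRF1, TDG and MBD2 led in Vector cells, and neighbours among these 4 overlapped in their library values. DNMT1 was above UHRF1 in 2 of the 3 Vector libraries, and without Vector replicate 3 these 2 genes changed places. TET3 followed apart from the genes on either side, then DNMT3A, TET2 and DNMT3B, whose neighbours overlapped at between 0.904 and 1.67 FPKM, and TET1 came last at 0.109 ± 0.0629 FPKM (SD, n = 3). In OE-MMP28 cells UHRF1 and DNMT1 overlapped at the top and each later neighbour was separate, with TET2 now above DNMT3A. Without OE-MMP28 replicate 3, UHRF1 and DNMT1 changed places.

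The other genes of the pathway were read as lists. Leaving aside the list of S phase and proliferation genes, 13 of 79 distinct tested genes were higher (16.5%) and 7 lower (8.86%). The backgrounds were 11.7% and 11.6%. With the 22 genes of that list the counts were 23 and 7 of 101. Replication genes placed in another list, such as PCNA, remain among the 79. Among 18 tested partners of the methyltransferases, 2 rose and none passed as lower: PCNA, the sliding clamp that tethers DNMT1 at the replication fork (0.71, edgeR adjusted p = 0.00289), and USP7, a deubiquitinase bound to DNMT1 and UHRF1 (0.41, edgeR adjusted p = 0.0463). PCNA passed in 16 of 17 alternative analyses and USP7 in 4. In the reader list, 10 genes of methyl-CpG-binding protein families, 2 rose (MBD3 at 0.60 and MBD4, a glycosylase for mismatched thymine, at 0.55) and 2 fell (MBD5 at -0.62 and ZBTB4 at -0.63). Not every protein of these families binds the mark. The region around MBD4 had a median of 0.53 and that around MBD5 a median of -0.43. Of 13 subunits of NuRD, the complex that MBD2 joins, MBD3 and MTA1 (0.45) rose and MTA3 (-0.61) fell. Of these, MBD3 passed in 7 of 17 alternatives, MTA1 in 4 and MTA3 in 11. The genes around MTA1 had a median of 0.55 and those around MTA3 a median of -0.36, and against the local median MBD3, MTA1 and MTA3 did not pass.

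The list of base excision repair genes, whose products complete demethylation after TDG, and of TET partners had 4 of 17 tested genes higher and 2 lower. UNG, the uracil glycosylase, rose by 1.07 on the log2 scale, from 22.5 ± 1.93 to 46.9 ± 4.31 FPKM, and APEX1, the endonuclease that cuts the abasic site, by 0.84, from 80.6 ± 10.5 to 143 ± 12.0 FPKM (SD, n = 3 each). GADD45A (0.52, passing in 6 of 17 alternatives) and MBD4 also rose, while the glycosylase NEIL1 fell by 0.92 and CXXC4, a partner of TET2, fell by 1.14. The genes around APEX1, on chromosome 14, had a median of 0.59, and those around UNG a median of 0.24. Against the local median, 1 of the 4 higher genes still passed, UNG, and APEX1, MBD4 and GADD45A did not. Among the tested genes that supply the methyl donor or the 2-oxoglutarate that TET enzymes use, those that rose included SDHA (0.85), FH (0.72), SDHD (0.68) and IDH2 (0.66). The 2 that fell were IDH1 (-0.53) and AHCYL2 (-0.55), the former in a region with a median of -0.41, and the region around SDHD had a median of 0.48. SDHA, SDHD and FH encode enzymes that clear succinate and fumarate, which inhibit TET enzymes when they build up, and IDH1 and IDH2 make 2-oxoglutarate.

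S phase and proliferation genes had the largest share of higher calls among these lists, 10 of 22 in edgeR (45.5%), beside 11.7% of all genes tested. None passed as lower. The median log2 fold change was 0.43, and 19 of the 22 estimates were above 0. MCM2 (1.15) and MCM5 (0.80), subunits of the replicative helicase, CDC6 (0.64), which loads it, E2F1 (0.61) and TYMS (0.60), which makes thymidylate, were among them. MKI67 (-0.11), CDK1 (-0.25) and TOP2A (0.19) did not pass. The genes around MCM2 had a median of 0.50, those around MKI67 -0.57, those around CDK1 -0.35 and those around TOP2A 0.0040. DNMT1 and UHRF1, themselves called higher, lay within the range of the called genes of this list (0.47 to 1.15). That range leaves out the 12 genes not called, and moderately raised called genes fall in it almost by construction. Whether the change in cell cycle genes had a part in that of DNMT1 and UHRF1 was not tested.

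**Figure D5:**
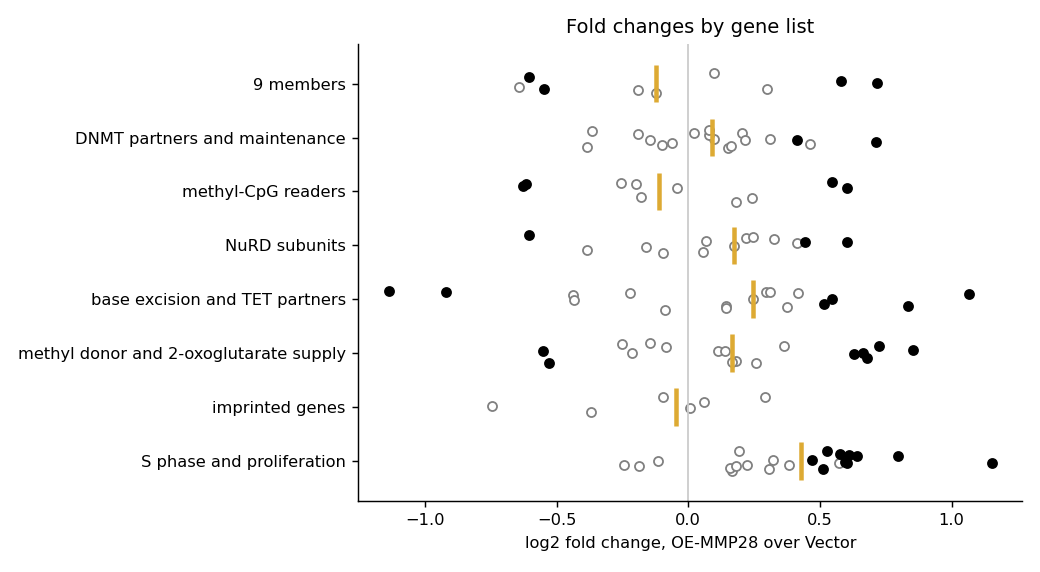
log2 fold change of OE-MMP28 over Vector for the 9 members and for each tested gene of 7 lists, filled at an edgeR adjusted p under 0.05, with bars at the medians. The S phase list has the highest median (0.43), and the members split between 2 filled points on each side of 0.

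Germline genes, which DNA methylation is known to keep silent in body cells, were absent or nearly so in both groups. Of 22 such genes, 13 had no read in any library and the others reached at most 5 reads, so none could be tested. Imprinted genes carry the methyl mark on one parental copy and can be expressed from the other. Among 15 of them, 6 were tested. The most abundant were PEG10 (19.04 FPKM in Vector and 18.998 in OE-MMP28), GRB10 (8.21 and 7.62 FPKM) and MEST (7.06 and 8.58 FPKM). The edgeR adjusted p of the 6 ranged from 0.14 to 0.98, with a median log2 fold change of -0.045. CDKN1C had the largest estimate (-0.75), on only 20 to 47 reads, and did not pass.

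The genes whose pattern over the 6 libraries was most like that of a called member, by Pearson's r of log2 CPM (counts scaled to library size) among 10439 protein-coding genes, were GPN3, PLK1 and H3F3B for DNMT1 (r = 0.999, 0.998 and 0.997) and TNFRSF1B, COX17 and RAB7A for UHRF1 (r = 0.994 for each). For DNMT3A they were TRIM31, ERICH1 and TOP1MT (r = 0.9996, 0.998 and 0.997), and for TET3 they were TMEM39A, RANBP10 and POLR3D (r = 0.997, 0.994 and 0.994). With 6 libraries in 2 groups such values are common: 112 to 359 genes exceeded an r of 0.95 with each of these members.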

How the data were processed

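RNA-seq libraries of 3 Vector and 3 OE-MMP28 samples were read from one table. The authors deposited whole-number read counts per gene and FPKM values, made with HISAT2 2.0.5 and featureCounts 1.5.0-p3 per the submitters' processing notes. The handling of strand and of multiply mapped reads is not given in the sources used here. Gene coordinates were taken from the table, and all 58735 equal those of the GRCh38 annotation in the reference. Columns holding the authors' group means, fold changes and p-values were not used.

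Counts were filtered (filterByExpr, minimum count 10, minimum total 15), scaled by TMM and tested with edgeR 4.0.16 (quasi-likelihood F test, group only, R 4.3.3) with Benjamini-Hochberg adjustment over 15319 genes, called under an adjusted p of 0.05. The methods of the study name limma, but counts call for a count model, so limma 3.58.1 on log2(FPKM + 1), with mean FPKM of at least 0.5, was an alternative, as were a pseudocount of 0.1, voom, DESeq2 1.42.0, other scalings, no filter, no mitochondrial genes, a replicate block, leaving out each library, and an offset by the median of genes within 10 Mb. The code was tested on simulated data. Levels between genes were compared in FPKM. The gene length in the table counts the exon bases of all annotated transcripts together, such as 9796 for DNMT1 and 5145 for UHRF1. The order of levels and the ratios between genes depend on these lengths. All 9 members are named, with any called gene of the lists, the markers, overlapping genes and pseudogenes, and the 3 genes most correlated with each called member. A single result of the lists is not reported here. Members and lists were chosen with earlier results of these data known. Intervals cover 95%. No threshold on fold change was set. Totals of 13633249 to 16691458 reads limit genes near 3 reads per library, and such floors cover counting error only.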

Additional observations from a re-analysis of the deposited data

How the results depend on the processing

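UHRF1 kept its direction and call in 16 of 17 alternatives, DNMT1 in 15, and DNMT3A and TET3 in 11 each, and the 4 genes kept their direction in all 17. Leaving out each library in turn, the log2 fold change ran from 0.46 to 0.65 for DNMT1, from -0.65 to -0.52 for DNMT3A, from -0.79 to -0.51 for DNMT3B, from -0.61 to -0.43 for TET3, from -0.63 to 0.25 for TET1 and from -0.11 to 0.27 for TET2. The calls among the members then numbered 1 to 2 higher and 0 to 2 lower. The counts over all genes were 985 to 1916 higher (1795 with all libraries) and 1044 to 1949 lower (1784), the lowest of each without OE-MMP28 replicate 2. The lists held 10 to 23 higher and 3 to 8 lower genes, and the S phase list 3 to 12 higher, with the lowest count of 3 without OE-MMP28 replicate 2. In limma on log2(FPKM + 1), on log2(FPKM + 0.1) and on log2(FPKM + 1) with no filter, DNMT3A was at -0.34, -0.57 and -0.34, members called lower were 0, 1 and 0, list genes higher were 14, 13 and 7 and lower 2, 2 and 0, S phase genes higher were 6, 5 and 4, and all genes were 1009, 1000 and 362 higher and 965, 970 and 308 lower. TET3 was at -0.45 with and without the filter at a pseudocount of 1. With no filter, DNMT1 was at 0.54, UHRF1 at 0.67 and members called higher were 0. Adding 1 to FPKM shrinks the fold of a gene as low as DNMT3A by construction. Against the local median, DNMT3A was at -0.063, TET3 at -0.082, TET1 at 0.20 and TET2 at -0.047, no member was called lower (0), list genes lower were 4, S phase genes higher were 16, and all genes higher were 1104. The cause of the other differences was not tested.

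The replicate block changed no call of the 9 members and gave 1844 higher and 1841 lower genes overall. Same-numbered samples did not deviate together (r = 0.017, 0.0080 and -0.088 across genes), so the numbers were not taken to pair them. DESeq2 called 1734 higher and 1741 lower genes. Reads per library limit TET1 (6 to 21 reads) and DNMT3B (46 to 84 reads).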
